A study of Danio rerio with 8 samples.

Results

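Annexins and S100 proteins are families of calcium-binding proteins, followed here in zebrafish melanoma cells and in EGFP-positive cells from scales. The members were the rows of a gene count table whose Ensembl identifier maps to a symbol that starts with anxa, s100 or icn, whatever its capitals. Of 28272 rows in the table, 25 met this rule, 13 annexin rows and 12 rows of S100 or icn genes. A further 6 identifiers with such symbols (anxa1b, anxa1c, anxa1d, anxa14, s100b and s100w) have no row in the table and were not analysed here.

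The study compared gene expression in melanomas with that in cells the labels call scale melanocytes, with 4 RNA-seq libraries for each. All 8 libraries came from adult fish of 1 labelled strain. It carries BRAF with the V600E change and EGFP, each driven by the mitfa promoter of the pigment cell lineage, the p53(zdf1) allele and the alb(b4) allele. These elements are thus shared by both groups, and neither group is without the oncogene. EGFP-positive cells without pigment had been sorted in both cases. Nothing in the labels ties each library to its own fish, so the p-values below rest on the spread among the libraries, and that spread may be technical.

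Annexins bind acidic phospholipids when calcium rises, through a folded core of repeats, and take part in membrane repair, vesicle traffic and the link between membrane and actin. S100 proteins are small, usually dimeric proteins with a pair of EF-hand calcium-binding loops, and several of them bind the amino-terminal tails of annexins. The best known such complex joins anxa2 with s100a10, an S100 protein that has lost calcium binding. Both families are abundant in surface epithelia, and icn, for ictacalcin, is an S100-type gene of fish epidermis.

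Libraries held between 86888494 and 100270657 counts. Levels are given as CPM, the reads of a row relative to the TMM-scaled size of the library, and are compared only between libraries for the same row, since transcript lengths were not used here. Several transcripts go against the label of the scale cells, which are therefore called the scale libraries. Of 15 rows for epidermal keratinocyte markers, 13 were lower in melanoma and 0 higher, and the whole list summed to 1746 to 2905 CPM in melanoma and 49540 to 104139 CPM in the scale libraries. The keratin gene krt8, also active in simple epithelia, was not called and held most of the melanoma sum, with 1692 to 2586 CPM in melanoma and 800 to 1548 CPM in the scale libraries. Of 10 rows for pigment cell markers, 9 were higher in melanoma, and their sum lay between 2098 and 12218 CPM there, against 63.4 to 126 CPM in the scale libraries. All 9 rows for fibroblast and scale bone markers were lower in melanoma, with sums of 4.83 to 45.0 CPM there and 337 to 6361 CPM in the scale libraries. Of 6 rows for periderm, mucous or ionocyte markers, 4 were lower and 0 higher, with sums of 239 to 559 CPM in melanoma and 745 to 1755 CPM in the scale libraries. The atp1b1 row ENSDARG00000013144 was not called and held most of that melanoma sum, with 229 to 557 CPM there. Among the lower rows, krt1-19d, krt92 and agr2 averaged 0.559, 0.199 and 3.35 CPM in melanoma. In the scale libraries they averaged 129, 137 and 310 CPM. No marker row was at 0 throughout a group. In bulk libraries fewer cells of a type and less RNA per cell cannot be told apart, and the part of epidermal or other skin cells in the changes below was not tested.

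Most members fell in melanoma. In the quasi-likelihood test of edgeR, with p-values adjusted by Benjamini-Hochberg over all tested rows and called under 0.05, 4 of the 25 rows were higher and 15 lower, while 6 were not called. Over all 26749 tested rows, 36.8% were called, 21.7% higher and 15.2% lower. The median log2 fold change, melanoma over scale libraries, was -1.50 for the annexin rows and -3.53 for the S100 and icn rows, beside 0.05 for all tested rows. Changes of single rows are given ± SE and group means ± SD over 4 libraries. All 25 members passed the filter on low counts, but s100t reached its level in 0 melanoma libraries and 4 scale libraries, so it had to differ once it was tested. The 4 libraries of each group did not overlap for 8 annexin rows and 9 S100 or icn rows, where 36.9% of all tested rows did not overlap. With total counts alone as the scaling, 47.3% of all rows were called, 40.6% higher and 6.65% lower, and of the members 6 were higher and 12 lower.

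**Figure D1:**
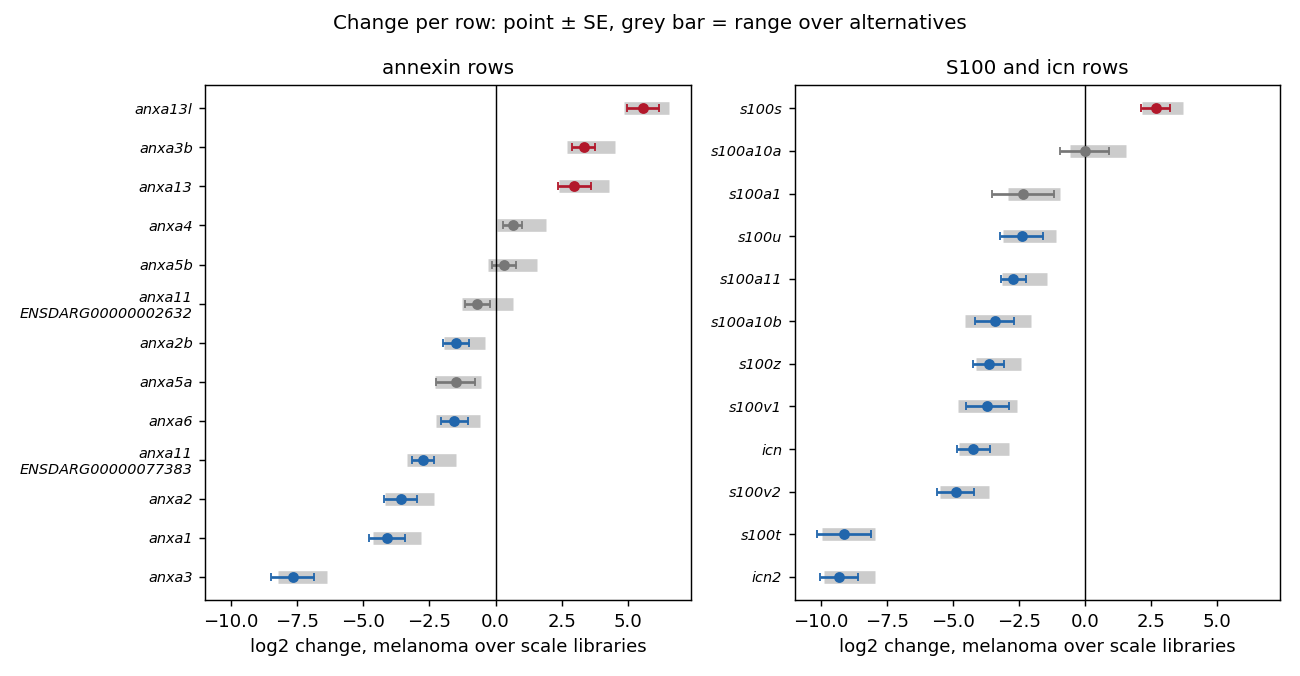
Log2 change of each member row, melanoma over scale libraries (x axis), with 1 row per line in the annexin panel (left) and the S100 and icn panel (right). Points are the fitted changes with their SE as bars, red for rows called higher, blue for rows called lower and grey for rows not called, and grey bands span the values under all alternative settings. Of the annexin rows, 3 stand to the right of 0 in red and 6 to the left in blue, against 1 and 9 of the S100 and icn rows.

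As a share of all counts, the 13 annexin rows together took 0.170% ± 0.0125 in melanoma and 0.395% ± 0.0285 in the scale libraries (SD, n = 4 each). The 12 S100 and icn rows took 0.135% ± 0.0786 in melanoma and 0.903% ± 0.221 in the scale libraries. No library of one group reached the range of the other in either sum. Of the S100 and icn share, the single row icn held 0.0782% ± 0.0175 of counts in melanoma and 0.574% ± 0.166 in the scale libraries. Without icn the share was 0.151% in melanoma replicate 1 and between 0.0211% and 0.0328% in the other melanoma libraries, against 0.263% to 0.418% in the scale libraries. In each melanoma library most of that share was the single row s100a10b, with 143568 reads in replicate 1 and 15594 to 29134 in the others.

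The scale libraries differed among themselves. Replicate 2 and the second of the 2 columns named replicate 3 detected the fewest rows at 10 counts. These 2 libraries had the higher CPM for 15 of the 25 members and the lower CPM for 4, namely anxa13l, anxa5a, anxa6 and s100s. The share of all tested rows split in this way was not counted, so these counts are not read as particular to the members. TMM factors were 1.37 to 1.67 in melanoma, 0.467 and 0.538 in these 2 scale libraries and 0.863 and 0.874 in the other 2. In share of counts, without that scaling, the annexin rows took 0.400% and 0.412% in these 2 libraries and 0.354% and 0.415% in the others. The S100 and icn rows took 1.03% and 1.11% in these 2 libraries and 0.611% and 0.860% in the others, still apart.

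Among the annexins, anxa1, anxa2, anxa3 and 1 of the 2 anxa11 rows fell. The anxa1 product inhibits phospholipase A2 activity and limits inflammation through formyl peptide receptors. In melanoma replicates 1 to 4, anxa1 (ENSDARG00000026726) had 300, 314, 101 and 49.8 CPM. In scale replicates 1 and 2 and the first and second columns of replicate 3, it had 2563, 4641, 1899 and 4070 CPM. Every melanoma library lay below every scale library, and replicates 3 and 4 were the low ones within melanoma. The means were 191 ± 135 CPM in melanoma and 3293 ± 1278 CPM in the scale libraries (log2 fold change -4.11 ± 0.69, adjusted p = 0.000767).

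The gene anxa2 encodes the annexin that carries s100a10 at the plasma membrane and binds plasminogen and its activator there. Its row (ENSDARG00000003216) had 108, 25.6, 202 and 116 CPM in melanoma, against 945, 1685, 996 and 1810 CPM in the scale libraries. The groups did not overlap, and melanoma replicate 2 was the low library of its group (log2 fold change -3.59 ± 0.62, adjusted p = 0.000899). Its partner s100a10b (ENSDARG00000025254) had 877, 155, 199 and 108 CPM in melanoma and 2398, 4441, 2122 and 5354 CPM in the scale libraries. It fell too (log2 fold change -3.42 ± 0.74, adjusted p = 0.00371), with melanoma replicate 1 well above the other 3. Without that library the s100a10b change was -4.53, and without the 2 scale libraries that detected the fewest rows it was -2.74. In the same melanoma replicate 1, the 7 leukocyte marker rows summed to 2901 CPM, with 306 to 1232 CPM in the other melanoma libraries and 1723 to 4291 CPM in the scale libraries. Most of the sum in each library was cd74a, which was not called. Of the 7 leukocyte rows, 2 were higher in melanoma (lcp1 and spi1), 0 lower and 5 not called. The lcp1 row had 304 CPM in melanoma replicate 1 and 30.3 to 98.3 CPM in the other melanoma libraries. In the scale libraries it had 18.8 to 37.7 CPM. The 15 keratinocyte marker rows summed to 2905 CPM in melanoma replicate 1 and to 1746 to 1976 CPM in the other melanoma libraries. Most of these sums was krt8. With krt8 and krt18a.1 left out, they were 207, 32.2, 33.2 and 178 CPM in melanoma replicates 1 to 4. The part of such cells in the s100a10b level was not tested.

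The anxa3 product is a short-tailed annexin known from neutrophils and epithelia. Its row (ENSDARG00000009196) had 0.299, 0.00788, 0.178 and 0.111 CPM in melanoma, which are 49, 1, 26 and 16 reads. The scale libraries had 22.5, 37.0, 23.7 and 39.6 CPM. This was the deepest fall among the annexins (log2 fold change -7.66 ± 0.81, adjusted p = 5e-05), and 147 of the 26749 tested rows fell further.

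The anxa11 product has a long proline-rich tail and tethers RNA granules to lysosomes in mammalian neurons. Of the 2 rows with this symbol, ENSDARG00000077383 had 197, 218, 223 and 168 CPM in melanoma, against 1107, 1923, 955 and 1434 CPM in the scale libraries. Its melanoma values lay close together and all below the scale values (log2 fold change -2.75 ± 0.42, adjusted p = 0.000422). The other row, ENSDARG00000002632, had 24.2, 14.6, 24.9 and 39.9 CPM in melanoma and 23.6, 43.1, 21.5 and 78.8 CPM in the scale libraries. These groups overlapped and the row was not called (log2 fold change -0.69 ± 0.47, adjusted p = 0.271). Its change was -1.26 and called lower (adjusted p = 0.0345) with a filter of 5 CPM in 4 libraries. Its sign turned to 0.16 without the 2 scale libraries that detected the fewest rows and to 0.65 with total counts alone as the scaling.

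Smaller falls were called for anxa2b and anxa6. The paralog anxa2b had 1.02, 1.56, 0.744 and 0.795 CPM in melanoma and 3.17, 2.09, 3.21 and 3.21 CPM in the scale libraries (log2 fold change -1.50 ± 0.48, adjusted p = 0.0291). The gene anxa6 encodes an annexin with a duplicated core that regulates membrane cholesterol. Its row had 2.66, 2.58, 3.54 and 3.68 CPM in melanoma, against 16.9, 4.53, 11.6 and 3.52 CPM in the scale libraries, where the groups overlapped (log2 fold change -1.55 ± 0.52, adjusted p = 0.0340). Both calls were fragile. With total counts alone as the scaling, the change was -0.42 for anxa2b (adjusted p = 0.594) and -0.60 for anxa6 (adjusted p = 0.50). Each call was also lost without melanoma replicate 1 (adjusted p = 0.0549 for anxa2b and 0.0678 for anxa6), melanoma replicate 3 (0.0816 and 0.0595), melanoma replicate 4 (0.0842 and 0.0625) or, in the scale libraries, the first column of replicate 3 (0.0506 and 0.0567). With the replicate number as a block the adjusted p was 0.0687 for anxa2b and 0.106 for anxa6. The call of anxa6 was also lost without melanoma replicate 2 (0.0763), without scale replicate 1 (0.0847) and with limma-voom (0.0517). Its change was -2.23 without the 2 scale libraries that detected the fewest rows.

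**Figure D2:**
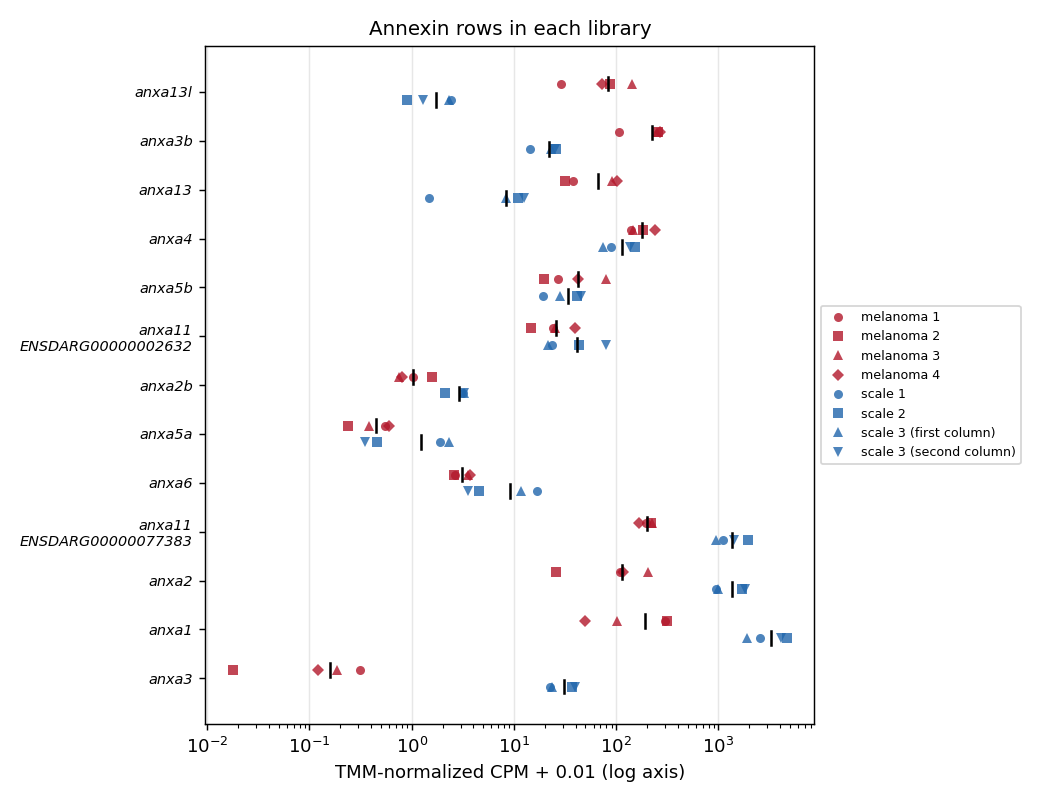
TMM-normalized CPM plus 0.01 on a log axis for each of the 13 annexin rows, with melanoma libraries in red above scale libraries in blue. Each symbol is 1 library and each black bar the group mean. The red points of anxa13l, anxa3b and anxa13 all lie to the right of the blue ones, those of anxa1, anxa2 and anxa3 all to the left, and those of anxa4 and anxa5b overlap them.

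By contrast anxa13l, anxa3b and anxa13 rose in melanoma. The anxa13 genes encode short annexins, which in mammals carry a myristoyl group and are known from gut epithelium. The row anxa13l (ENSDARG00000013613) had 28.8, 87.1, 141 and 73.2 CPM in melanoma, against 2.40, 0.889, 2.32 and 1.28 CPM in the scale libraries. All melanoma libraries stood above all scale libraries (log2 fold change 5.58 ± 0.59, adjusted p = 4.96e-05), and 107 of all tested rows rose further. The row anxa13 (ENSDARG00000013976) had 37.6, 31.6, 91.6 and 102 CPM in melanoma and 1.45, 11, 8.37 and 12.4 CPM in the scale libraries. Melanoma replicates 3 and 4 were the high ones and scale replicate 1 the lowest of all (log2 fold change 2.98 ± 0.64, adjusted p = 0.00338). Without the 2 scale libraries that detected the fewest rows, the anxa13 change was 3.67.

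The row anxa3b (ENSDARG00000044254), a paralog of anxa3, had 107, 257, 253 and 269 CPM in melanoma, against 14.4, 25.5, 23.2 and 25.0 CPM in the scale libraries. It was higher in all 4 melanoma libraries, and replicate 1 was the low library of that group (log2 fold change 3.33 ± 0.42, adjusted p = 0.000141). The same replicate was the lowest of the melanoma libraries in anxa13l. Its pigment cell markers summed to 2098 CPM, against 5478 to 12218 CPM in the other 3. The largest rows of each sum were pmela and tyrp1 (ENSDARG00000056151, 315 CPM in replicate 1 and 1796 to 6215 CPM in the others). These rows, sox10, gpr143, slc45a2, tyr and the other tyrp1 row were lowest in replicate 1 among the melanoma libraries. In that library kit and dct lay within the range of the others, and pmelb was highest. The part of these differences in the annexin levels was not tested.

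Of the annexin rows above 10 CPM in both groups, 3 were not called, 1 of them the second anxa11 row. The gene anxa4 encodes an annexin of epithelial membranes. It had 141, 183, 147 and 242 CPM in melanoma, against 89.8, 153, 74.8 and 138 CPM in the scale libraries (log2 fold change 0.65 ± 0.37, adjusted p = 0.191). The gene anxa5b encodes an orthologue of the annexin used to stain phosphatidylserine on dying cells. It had 27.2, 19.7, 79.0 and 41.8 CPM in melanoma and 19.4, 41.1, 28.0 and 45.5 CPM in the scale libraries (log2 fold change 0.32 ± 0.46, adjusted p = 0.605). In both rows the groups overlapped. With total counts alone as the scaling, which moved the median log2 fold change of all rows to 1.17, anxa4 (1.91, adjusted p = 0.000248) and anxa5b (1.58, adjusted p = 0.010) were called higher. The sign of anxa5b turned under upper quartile scaling (-0.14). The paralog anxa5a, at 0.434 ± 0.168 CPM in melanoma and 1.24 ± 0.993 CPM in the scale libraries, was not called (log2 fold change -1.51 ± 0.75, adjusted p = 0.133). Without the 2 scale libraries that detected the fewest rows, where anxa5a had 0.445 and 0.336 CPM, it was called lower (log2 fold change -2.29, adjusted p = 0.0168).

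The epidermal genes icn and icn2 fell by very different amounts. The row icn (ENSDARG00000009978) had 597, 447, 582 and 425 CPM in melanoma, against 6370, 15009, 3987 and 12922 CPM in the scale libraries. All melanoma libraries stood far below the scale libraries and close to each other (513 ± 89.2 CPM in melanoma and 9572 ± 5235 CPM in the scale libraries; log2 fold change -4.22 ± 0.61, adjusted p = 0.000319). The row icn2 (ENSDARG00000055514) had 2.52, 1.70, 1.60 and 3.55 CPM in melanoma and 996, 2216, 661 and 2068 CPM in the scale libraries. No other member fell further in the fit (log2 fold change -9.31 ± 0.70, adjusted p = 9.22e-06), and 48 of all tested rows did. Without the 2 scale libraries that detected the fewest rows, the changes were -3.37 for icn and -8.49 for icn2.

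The fish S100 genes s100v2, s100v1 and s100t fell as well, and no role is stated for them here. The row s100v2 (ENSDARG00000070702) had 8.81, 0.867, 11.5 and 10.4 CPM in melanoma, against 173, 274, 192 and 301 CPM in the scale libraries. The groups stood far apart, and melanoma replicate 2 was low (log2 fold change -4.89 ± 0.70, adjusted p = 0.000300). The row s100v1 (ENSDARG00000070427) had 0.244, 0.985, 0.198 and 0.0622 CPM in melanoma and 4.03, 2.67, 4.13 and 8.39 CPM in the scale libraries. Here melanoma replicate 2 was the high one (log2 fold change -3.69 ± 0.81, adjusted p = 0.00401; -4.81 without it). The row s100t (ENSDARG00000055589) had 0, 0, 2 and 1 reads in melanoma, against 127, 101, 242 and 348 reads in the scale libraries. From these 3 and 818 reads, taken over the TMM-scaled library sizes, the scale level was 635-fold the melanoma level. The exact 95% binomial interval of 217 to 3088 covers counting error only, not the choice of scaling. The fitted s100t change of -9.12 ± 1.02 (adjusted p = 6.55e-05) depends on the prior count and stood at -9.95 without melanoma replicate 3.

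Of the remaining S100 genes, s100z, s100a11 and s100u fell. The row s100z (ENSDARG00000038729) averaged 0.685 ± 0.427 CPM in melanoma and 8.56 ± 3.99 CPM in the scale libraries (log2 fold change -3.64 ± 0.58, adjusted p = 0.000581). The product of s100a11 binds anxa1 in mammalian keratinocytes. Its row (ENSDARG00000093628) had 1.70, 1.32, 0.922 and 0.677 CPM in melanoma, against 5.11, 10.8, 5.44 and 8.96 CPM in the scale libraries (log2 fold change -2.71 ± 0.48, adjusted p = 0.00108). The groups did not overlap for either of these rows. The row s100u (ENSDARG00000071014) had 6.72, 0.150, 3.05 and 2.43 CPM in melanoma and 6.69, 19.2, 19.4 and 20 CPM in the scale libraries, where melanoma replicate 1 matched scale replicate 1 (log2 fold change -2.40 ± 0.80, adjusted p = 0.0333). Its call was lost without melanoma replicate 3 (adjusted p = 0.0665) or 4 (0.0828), without scale replicate 2 (0.0549), without either column of scale replicate 3 (0.0546 and 0.0561), without the 2 scale libraries that detected the fewest rows (0.142) and with the replicate number as a block (0.0524). The s100u change was -3.11 without melanoma replicate 1, and -1.10 with total counts alone as the scaling (adjusted p = 0.310).

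Only s100s was called higher among the 12 S100 and icn rows. It (ENSDARG00000036773) had 6.52, 2.63, 7.60 and 7.93 CPM in melanoma, against 1.43, 0.511, 1.26 and 0.671 CPM in the scale libraries, and the groups did not overlap (log2 fold change 2.67 ± 0.54, adjusted p = 0.00245). The rows s100a1 and s100a10a were not called and lay low in both groups. The gene s100a1, whose mammalian product regulates calcium release in muscle, had 0.114 ± 0.113 CPM in melanoma and 0.586 ± 0.620 CPM in the scale libraries (adjusted p = 0.135, but 0.0437 with DESeq2). The row s100a10a had 10, 23, 21 and 13 reads in melanoma and 4, 14, 2 and 5 reads in the scale libraries (log2 fold change -0.02 ± 0.92, adjusted p = 0.991).

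**Figure D3:**
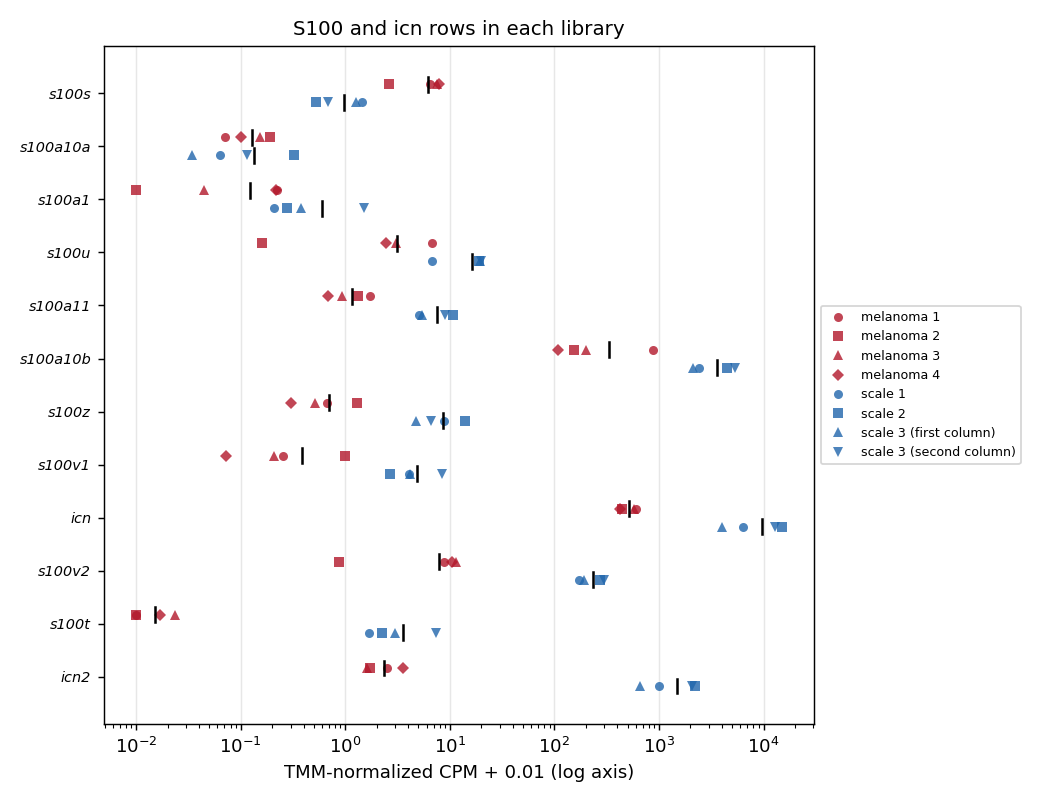
TMM-normalized CPM plus 0.01 on a log axis for each of the 12 S100 and icn rows, with melanoma libraries in red above scale libraries in blue. Each symbol is 1 library and each black bar the group mean. Red points lie wholly to the left of blue ones for 8 rows, among them icn2 and s100t, and wholly to the right for s100s.

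Related rows of the same family were then compared within each library, so that the scaling between libraries drops out. For 8 pairs of rows with like symbols, the log2 ratio of their reads (plus 1) was compared between groups with a two-sided exact permutation test, chosen after the values had been seen. With 4 libraries against 4 its smallest p is 0.0286. The 5 pairs that reached it had an adjusted p of 0.0457 over the 8. Among them, anxa3b over anxa3 had to separate the groups, for the reason given below. The adjusted p counts that pair and was not computed without it, so no ratio is called on it. The sources used here do not give how multiply aligned reads were treated, and pairs of similar sequence may share or lose reads.

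The ratio of icn2 to icn was -7.89, -8.03, -8.50 and -6.90 in melanoma and -2.68, -2.76, -2.59 and -2.64 in the scale libraries. The scale libraries thus lay close together, between -2.76 and -2.59. The melanoma libraries lay lower and further apart, between -8.50 and -6.90 (difference -5.16). The ratio of anxa3b to anxa3 was 8.45, 13.99, 10.42 and 11.16 in melanoma, against -0.64, -0.54, -0.03 and -0.66 in the scale libraries (difference 11.47). This pair moved in opposite directions in the fit, anxa3b up and anxa3 down, and neither row overlapped between groups. Its ratio therefore had to separate the groups, and its exact p adds nothing to the fit. The value of 13.99 in melanoma replicate 2 rests on 1 anxa3 read. The ratio of anxa2b to anxa2 averaged -6.50 ± 1.74 in melanoma and -8.81 ± 0.69 in the scale libraries (difference 2.31). That of the anxa11 rows, ENSDARG00000002632 over ENSDARG00000077383, averaged -3.04 ± 0.75 in melanoma and -5.17 ± 0.66 in the scale libraries (difference 2.13). For s100a10a over s100a10b the averages were -10.96 ± 1.83 in melanoma and -15.01 ± 0.92 in the scale libraries (difference 4.05), with few reads on s100a10a. The groups nearly met in 2 of these pairs: melanoma replicate 1 at -13.67 lay beside scale replicate 2 at -13.70 for s100a10a over s100a10b, and melanoma replicate 3 at -8.07 beside scale replicate 1 at -8.21 for anxa2b over anxa2.

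The other 3 pairs overlapped between groups. The ratio of anxa13l to anxa13 differed by 2.3 (exact p = 0.114, adjusted p = 0.152), with scale replicate 1 at 0.72 and the other scale libraries between -3.60 and -1.85. For anxa5b over anxa5a the difference was 1.36 (exact p = 0.314, adjusted p = 0.359). For s100v1 over s100v2 it was 1.19 (exact p = 0.743, adjusted p = 0.743), and melanoma replicate 2 stood alone at 0.18 against -7.24 to -5.14 in the other melanoma libraries. Without that library the s100v1 to s100v2 difference turned to -0.37.

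**Figure D4:**
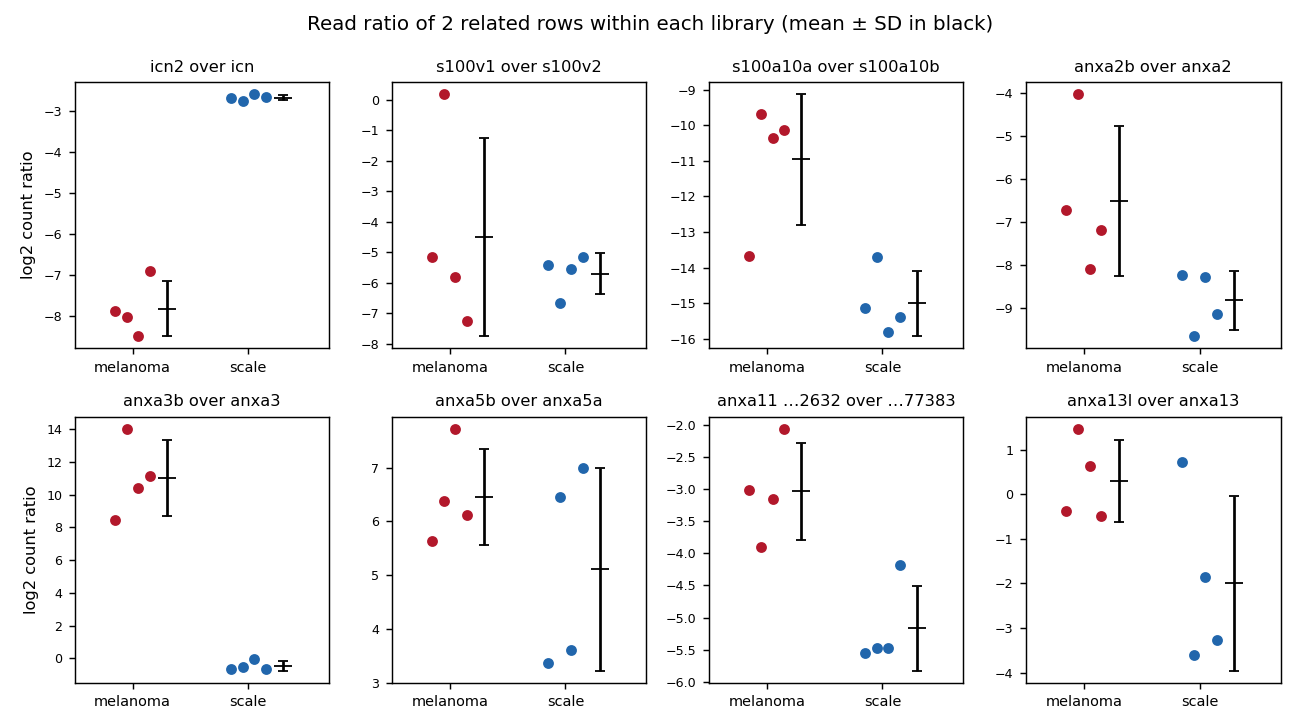
Log2 ratio of the reads of 2 related rows within each library (y axis, reads plus 1) for 8 pairs, with melanoma libraries in red to the left of scale libraries in blue and the mean ± SD of each group in black. The panels for icn2 over icn and anxa3b over anxa3 show groups far apart, with differences of -5.16 and 11.47. The panel for s100v1 over s100v2 shows melanoma replicate 2 alone at 0.18.

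Several S100 genes are neighbours in the RefSeq annotation of assembly GRCz12tu, which was used for gene order alone because the authors' build differs. One run of protein-coding genes reads krtcap2, s100a10b, s100w, icn, icn2, snx27b. The symbol snx27b at the far end matched no row, so its level is not given. The 3 measured S100-type rows of that run fell, with log2 fold changes of -3.42, -4.22 and -9.31. The adjoining krtcap2, which encodes a subunit of the enzyme that attaches sugars to asparagines, fell too (-1.65 ± 0.45, adjusted p = 0.0127). A second run reads pbxip1a, s100a11, s100u, s100s, pygo2, and its members moved both ways. While s100a11 and s100u fell, s100s rose, as did the adjoining pygo2, for a Wnt pathway coactivator (21.6 ± 8.91 CPM in melanoma and 0.887 ± 0.416 CPM in the scale libraries; log2 fold change 4.61 ± 0.54, adjusted p = 8.71e-05). At the other end pbxip1a was not called (log2 fold change 0.33 ± 0.40, adjusted p = 0.540). Strand setting is not given, so reads of overlapping genes on opposite strands cannot be told apart.

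**Figure D5:**
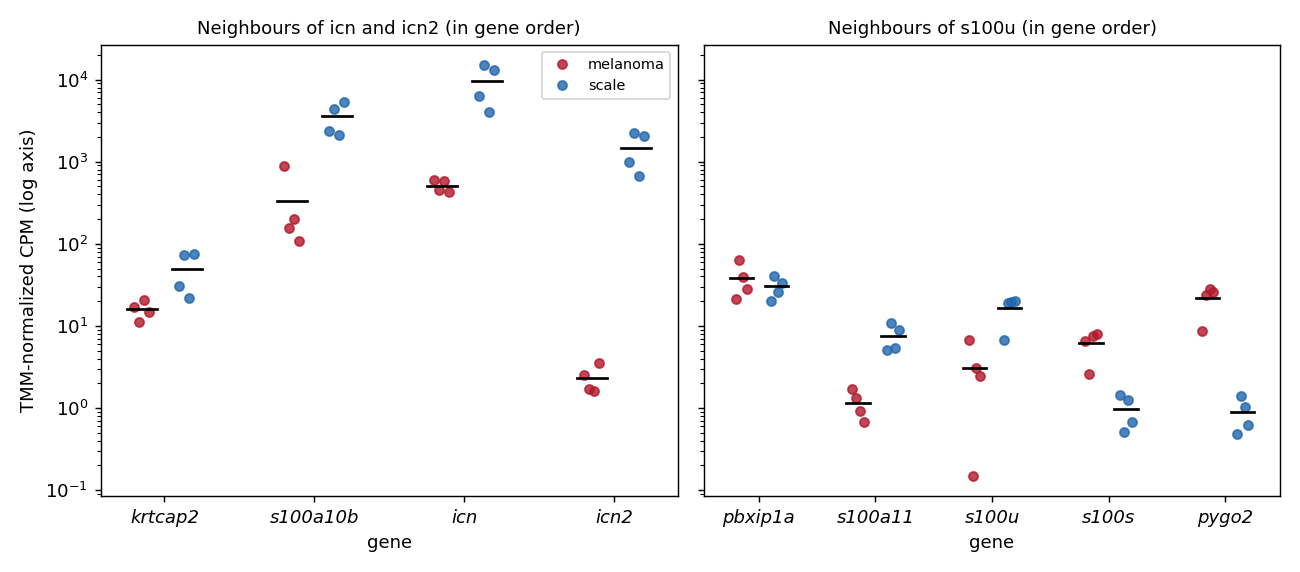
TMM-normalized CPM (log axis) of the measured genes in both runs of neighbouring S100 genes, in their order along the chromosome, with melanoma libraries in red to the left of scale libraries in blue. Each point is 1 library and each black bar the group mean. All genes shown on the left panel are lower in melanoma, from krtcap2 to icn2, while on the right panel s100s and pygo2 are higher and s100a11 and s100u lower.

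Other genes of calcium and membrane handling were counted in 4 lists, which hold no annexin or S100 gene. Among 23 rows for partners and receptors of annexins and S100 proteins, 3 were higher and 9 lower in melanoma, with a median log2 fold change of -1.25. Over all tested rows 21.7% were higher and 15.2% lower. The membrane and actin linker ezr (ENSDARG00000020944) was at 1.79 ± 0.738 CPM in melanoma and 45.8 ± 14.6 CPM in the scale libraries (log2 fold change -4.67 ± 0.45, adjusted p = 3.02e-05). A second ezr row (ENSDARG00000025091) had more reads and fell less. It was at 81.9 ± 30.7 CPM in melanoma and 216 ± 55.7 CPM in the scale libraries (log2 fold change -1.40 ± 0.38, adjusted p = 0.0137). The plasminogen activator gene plat, whose product binds anxa2 at the cell surface, was at 2.03 ± 1.22 CPM in melanoma and 15.5 ± 4.11 CPM in the scale libraries (log2 fold change -2.93 ± 0.49, adjusted p = 0.000776). The kinase gene yes1 (log2 fold change 1.90) and the scaffold gene iqgap1 (1.70) rose. Named after its values were seen, ahnak, for a giant scaffold that binds the complex of anxa2 and s100a10, was at 173 ± 71.2 CPM in melanoma and 722 ± 291 CPM in the scale libraries (log2 fold change -2.06 ± 0.46, adjusted p = 0.00434).

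Among 16 rows of penta-EF-hand proteins, the calpain proteases and their relatives, 3 were higher and 5 lower (median log2 fold change -0.29), beside 21.7% and 15.2% of all tested rows. The calpain genes capn9 (0.583 ± 0.371 CPM in melanoma and 48.2 ± 14.7 CPM in the scale libraries, log2 fold change -6.37) and capn2l (-6.97) fell, and capn1a (3.25) and capn1 (ENSDARG00000045199, 1.74) rose. Of 29 membrane repair rows 3 were higher and 5 lower (median -0.61), beside the same shares of all rows, 21.7% and 15.2%. The ESCRT gene chmp4c (0.145 ± 0.0867 CPM in melanoma and 42.9 ± 14.7 CPM in the scale libraries, log2 fold change -8.20) and the ferlin gene myof (ENSDARG00000017128, -2.21) fell. The caveolar coat gene cavin1 (ENSDARG00000059362, 2.40) and the membrane remodelling gene ehd1 (2.15) rose. A second cavin1 row (ENSDARG00000076411) was called lower (-1.49, adjusted p = 0.0399), though its groups overlapped.

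Of the 42 tested rows of other EF-hand sensors and buffers, 11 were higher and 3 lower (median 0.27), beside 21.7% and 15.2% of all tested rows. The calmodulin gene calm2a had 159, 329, 479 and 397 CPM in melanoma, against 37.8, 57.6, 34.2 and 73.4 CPM in the scale libraries (log2 fold change 2.75 ± 0.45, adjusted p = 0.000697). Of the other calmodulin rows, calm1a rose too (log2 fold change 2.14, adjusted p = 0.00273). The rows calm1b (adjusted p = 0.0807), calm3b (0.0803) and calm2 (ENSDARG00000015050, log2 fold change -0.58, adjusted p = 0.368) were not called. The neuronal calcium sensor gene hpca rose by 2.35. The calcineurin-like gene chp1 (-1.83) and the parvalbumin gene pvalb8 (-3.38) fell. The pvalb8 row lay low, at 0.101 ± 0.0978 CPM in melanoma and 1.06 ± 0.405 CPM in the scale libraries. Unlike chp1, the like-named chp2 rose (1.58, adjusted p = 0.00498). With total counts alone, 45 rows of the 4 lists were higher and 8 lower, beside 40.6% and 6.65% of all rows under that scaling. As reported, 20 were higher and 22 lower.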

How the data were processed

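The authors deposited a table of counts, whole reads of 28272 Ensembl genes in each of 8 libraries. Their second deposited table, of normalized signal, was those counts over a size factor constant within a library. The build Zv9 and the tools STAR 2.3, HTSeq and DESeq2 are named in the submitters' processing notes, with no role or order. The sources used here give neither the annotation release nor the strand setting. No row summed to under 40 counts.

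Column names gave the sample of each column. Both remaining scale columns carry the name of replicate 3 and were used as group members without a number. Symbols came from a reference table that matched 19599 rows. No pair of libraries of a group agreed within counting noise (smallest chi-square per degree of freedom 148).

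All rows kept by filterByExpr were fitted with edgeR 4.0.16 (TMM, quasi-likelihood, group only) in R 4.3.3, and p-values were adjusted over all 26749 by Benjamini-Hochberg with a threshold of 0.05. SEs are approximate, the change over the root of its F statistic. Alternatives were DESeq2 1.42.0, limma-voom (limma 3.58.1), other scalings, filters and thresholds, the replicate number as a block and left-out libraries. Deviations of same-numbered libraries were weakly correlated (r = -0.024 for replicate 1 and 0.110 for replicate 2). For melanoma replicate 3, r was 0.177 with the first scale column of that number and -0.160 with the second. These values do not settle whether libraries were paired, and the number was not taken as a pairing in the main fit.

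The members, the lists and the tests were chosen with earlier results of these data known. Full values were given for the 3 rows of each family with the highest mean CPM in each group. They were given too for the 5 largest called rises and falls per family without overlap. The same holds for member rows over 10 CPM in both groups that were not called. Of each partner list, up to 2 risen and 2 fallen rows by adjusted p were named, many with the log2 fold change alone. The second ezr and cavin1 rows were given because they share those symbols. The other calmodulin rows were given beside calm2a, and chp2 beside chp1. Further rows of myof (ENSDARG00000006112) and capn1 (ENSDARG00000055338) were counted in the lists, and their values are not given here. Of the listed partner symbols 19 had no row. Figures used Python 3.11.15 with matplotlib 3.10.9.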

Additional observations from a re-analysis of the deposited data

Results flagged for a closer look

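Among 74 groups of 4 libraries examined (each member's CPM, the summed shares and the pair ratios, in each group), 7 held a library whose gap to the nearest other exceeded Dixon's critical share of the range. Chance flags about 1 in 20 such groups. In melanoma, replicate 1 was high in s100a10b, at 877 CPM against 108 to 199 CPM (gap 0.882 of the range), and in the share of S100 and icn counts without icn, at 0.151% against 0.0211% to 0.0328% (0.910). Most of that share was s100a10b, so these flags are not separate. The same library was low in anxa3b, at 107 CPM against 253 to 269 CPM (0.902). In the scale libraries, replicate 1 was low in s100u, at 6.69 CPM against 19.2 to 20 CPM (0.938), and replicate 2 low in anxa2b, at 2.09 CPM against 3.17 to 3.21 CPM (0.967). The second column of scale replicate 3 was high in s100a1, at 1.51 CPM against 0.200 to 0.366 CPM (0.873). It was also high in the log2 ratio of the anxa11 rows ENSDARG00000002632 and ENSDARG00000077383, at -4.19 against -5.55 to -5.47 (0.941).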

How the results depend on the processing

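The counts of members called, 4 higher and 15 lower, lay between 3 and 6 higher and between 11 and 16 lower over all alternatives. Leaving out 1 library gave 4 higher and between 12 and 14 lower, and leaving out the 2 scale libraries with the fewest detected rows gave 4 and 15. Total counts alone called 5 annexin rows higher instead of 3. A filter of 5 CPM in 4 libraries, which removes low rows, left 0 S100 and icn rows higher and 5 lower, where 26.9% of the rows it kept were called in each direction. With the replicate number as a block 4 members were higher and 12 lower, also with the like-named columns exchanged. Of all rows, 18.9% were higher and 13.4% lower with the block, and 18.2% and 12.4% with those columns exchanged. For the 4 partner lists, called rows numbered 20 higher and 22 lower as reported. They were 45 and 8 with total counts alone, a scaling that called 40.6% of all rows higher and 6.65% lower. With the 5 CPM filter 13 were higher, beside 26.9% of the rows it kept. With a 2-fold minimum 9 were higher, beside 12.4% of all rows. At an adjusted p of 0.01, 12 were higher and 14 lower, beside 13.3% and 9.02% of all rows. Leaving out 1 library gave 13 to 23 higher and 19 to 24 lower, the lowest without the first column of scale replicate 3. For these counts the cause was not tested.

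Signs turned in rows that were not called. For s100a10a they were 0.42 with limma-voom, 1.36 with total counts, 0.32 and 0.36 with the block in its 2 forms, 1.55 without the 2 scale libraries with the fewest detected rows, and from -0.48 to 0.81 with 1 numbered library left out, beside -0.58 without the first column of scale replicate 3. For anxa5b they were -0.14 with upper quartile scaling, -0.29 with the 5 CPM filter, and from -0.17 to 0.57 with 1 library left out, among them -0.0060 without the first column of scale replicate 3. For the anxa11 row ENSDARG00000002632 they were 0.65 with total counts and 0.16 without the 2 scale libraries. The ratio of s100v1 to s100v2 turned to -0.37 without melanoma replicate 2, its lowest value with 1 library left out, where the highest was 2.11. The numbers of the scale columns named replicate 3 are not known, which limits the block. At these depths counting error mattered only for rows of a few reads, such as s100t, s100a10a and s100a1.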

Other observations

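Beyond the members, markers of other cells varied among the melanoma libraries. The antigen presentation gene cd74a had 2052 CPM in melanoma replicate 1, with 192 to 917 CPM in the other melanoma libraries and 1436 to 3769 CPM in the scale libraries. The transcription factor gene egr2 had 19.5 CPM in melanoma replicate 1 and 0.451 to 0.601 CPM in the other melanoma libraries, against 12.5 to 19.8 CPM in the scale libraries. It was listed among 5 rows for Schwann cell and glia markers, of which 0 were higher in melanoma, 1 lower and 4 not called. The other rows of that list did not move together in melanoma replicate 1. There gfap (0.0855 CPM) and plp1b (0.299 CPM) were the lowest of the melanoma libraries, mpz (0.837 CPM) the highest and mbpa (1.09 CPM) between.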
